A study of Mus musculus with 2 samples.

Results

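The mitochondrial solute carriers are described here in the hearts of newborn mice. They were taken as the protein-coding genes whose GENCODE symbol begins with Slc25a, matched to the expression tables by gene identifier. The rule gave 46 of the 21474 protein-coding genes, and of the 43346 genes of all kinds, in the tables. The series holds 1 group, hearts of healthy mice of the strain B6NTac;B6NCrl/Lap at 0 days after birth, pooled over males and females, with no genetic change or treatment in the labels. It has 2 biological replicates, made from separate isolates of the tissue that carry the same donor label, so that the spread between them is the only error that can be given. Replicate 1 pooled 15 mice, and the number for replicate 2 is not in the labels. Total RNA longer than 200 nucleotides was depleted of ribosomal RNA and sequenced in paired, stranded reads of 101 nucleotides. No second tissue, age or genotype was measured, so levels are compared between carriers within the heart and between the replicates, with no test.

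Carriers of this family sit in the inner mitochondrial membrane and exchange nucleotides, phosphate, metabolites, amino acids and cofactors between the cytosol and the mitochondrial matrix. Most are built from repeats of a shared module that together form a single transport channel, closed in turn on either side of the membrane. The heart makes most of its ATP in mitochondria and uses it in the cytosol for contraction, so that exchange of ADP for ATP and uptake of phosphate carry the heaviest traffic. Around birth the heart turns from sugars towards fatty acids as fuel.

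Levels are given for replicate 1 and then replicate 2, as TPM, an abundance divided by transcript length and scaled to the whole library, which allows genes to be compared with each other. Expected counts, the fragments assigned to a gene, summed over genes to 69946215 in replicate 1 and 73615802 in replicate 2, of which 362998 and 442359 fell on the carriers. The tissue label was checked against markers. All 6 cardiomyocyte markers were detected, with summed levels of 10731 and 11174 TPM in replicates 1 and 2. Red-cell markers were present as well, with 5 of 8 detected and sums of 3113 and 3726 TPM, almost all from globins, while Klf1 had 0 counts. The 4 smooth muscle markers summed to 306 and 629 TPM. Sums were 21.2 and 25.7 TPM for the 5 liver markers, 0.33 and 2.23 for the 5 neuronal and glial markers and 3.17 and 0.45 for the 5 skeletal muscle markers. They were 4.41 and 0.01 TPM for the 4 lymphocyte and thymus markers, of which Rag1 held 3.20 and 0.01 TPM. For the 4 brown fat markers they were 4.33 and 11.2 TPM, of which Cidea held 4.14 and 11.2 TPM. Ucp1 and Lep were at 0 counts in both replicates. In a tissue of several cell types, fewer cells of a type and less RNA per cell cannot be told apart.

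A level of at least 1 TPM in both replicates was reached by 32 of the 46 carriers, or 69.6%, against 47.1% of all protein-coding genes. Slc25a33 and Slc25a53 reached it in replicate 1 alone, Slc25a47 in replicate 2 alone, and 11 carriers in neither. The family summed to 2873 and 3386 TPM in replicates 1 and 2 (3130 ± 363, SD, n = 2), which was 0.862% and 1.01% of the TPM of all protein-coding genes. Slc25a4, Slc25a3 and Slc25a5 together supplied 82.9% and 85.3% of that sum. The carriers that exchange ADP for ATP took 69.1% and 70.9%, the phosphate carrier 13.8% and 14.4%, and the di- and tricarboxylate carriers 5.77% and 5.10%. These sums and shares count all transcripts. They include 1350 and 1679 TPM assigned to Slc25a4-202, a transcript of Slc25a4 annotated as a retained intron and not as protein-coding. Only 4 carriers exceeded 100 TPM in both replicates. The median carrier was at 4.01 TPM, above the median of 1.17 TPM over all protein-coding genes, but among detected genes the medians were 6.60 TPM for carriers and 7.56 TPM for all. The family thus held a few very abundant genes and many at ordinary levels.

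**Figure D1:**
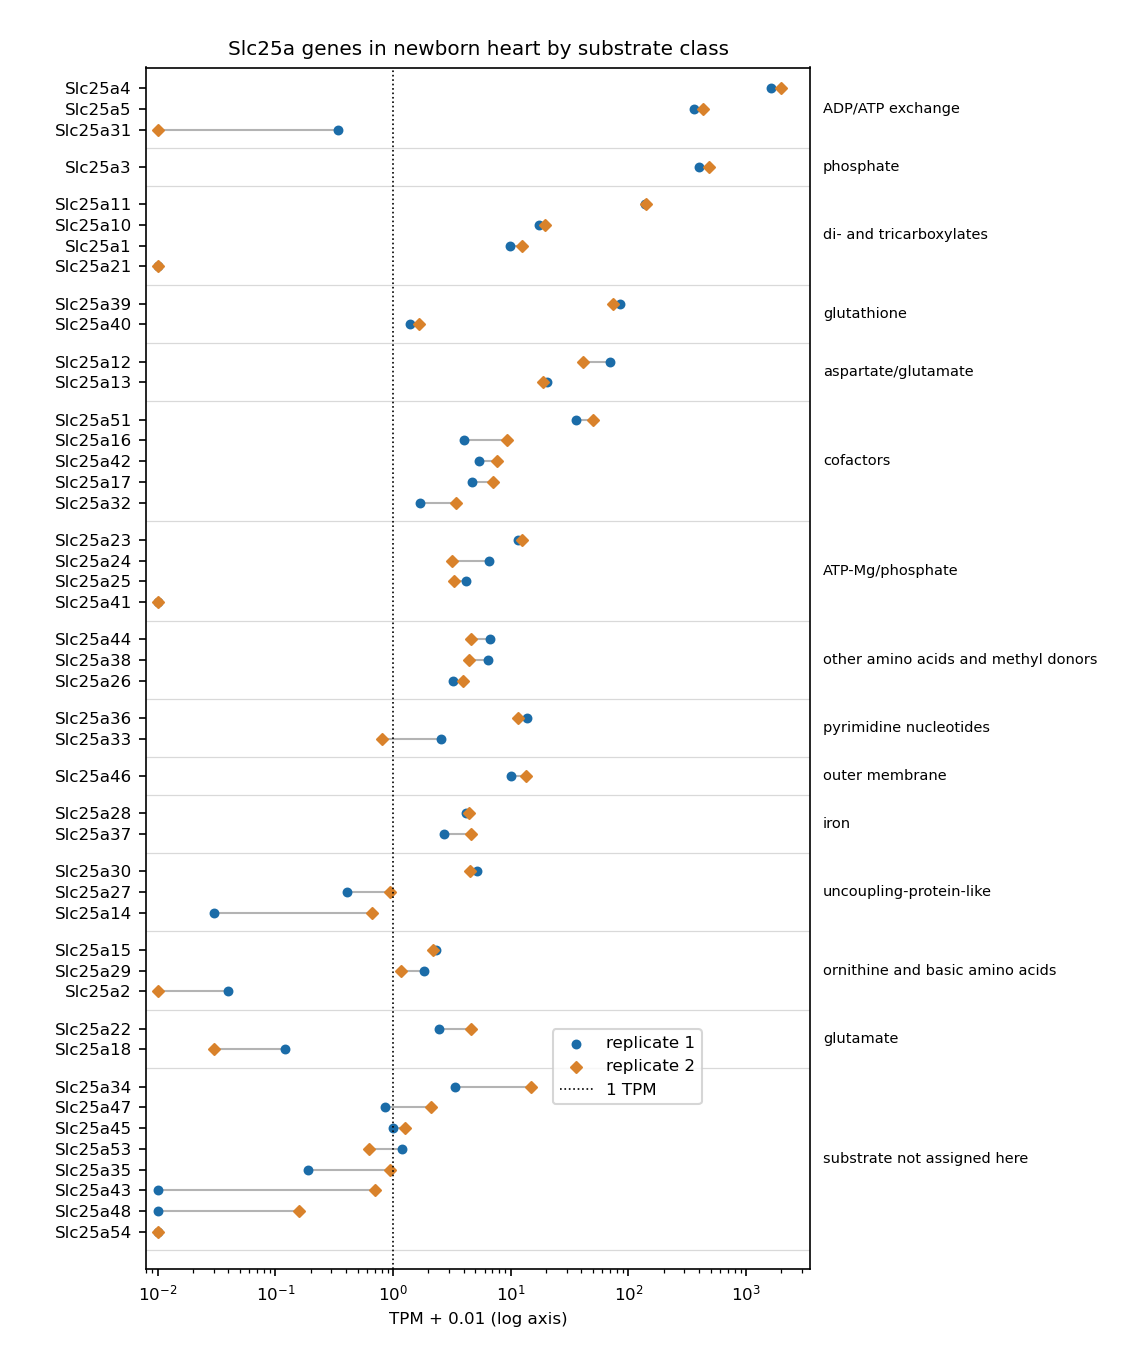
Level of 45 carriers in TPM plus 0.01 on a log axis, with a circle for replicate 1 and a diamond for replicate 2 joined by a line, grouped by transported substrate. Slc25a4, Slc25a3, Slc25a5 and Slc25a11 lie above 100 TPM in both replicates, and points at the left edge are genes with 0 counts.

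Slc25a4 encodes the ADP/ATP carrier known from heart and skeletal muscle, Slc25a5 the form known from dividing cells and Slc25a31 the form known from testis. Their protein-coding sequences are related but distinct. The coding bases of the first coding exon of the 2 abundant forms are shown because they mark how far apart the transcripts are for the assignment of reads. They are from GENCODE M21 transcripts on GRCm38, at chr8:46210812-46210922 on the minus strand for Slc25a4 and chrX:36795731-36795841 on the plus strand for Slc25a5, with differing bases in capitals.
Slc25a4: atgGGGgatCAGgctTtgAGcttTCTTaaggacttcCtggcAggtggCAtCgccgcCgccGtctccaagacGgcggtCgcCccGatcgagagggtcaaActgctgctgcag
Slc25a5: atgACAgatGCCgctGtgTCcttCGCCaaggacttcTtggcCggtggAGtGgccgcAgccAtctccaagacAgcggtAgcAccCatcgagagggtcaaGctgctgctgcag
Of these 111 bases 86 were identical. Over the whole coding sequence of 894 bases in each gene, 77.4% were identical and the longest identical run was 20 bases, far shorter than a read.

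Slc25a4 was the most abundant carrier when all its transcripts were counted, with 1621 TPM in replicate 1 and 1969 TPM in replicate 2 (1795 ± 246, SD, n = 2). It ranked 17 among all protein-coding genes by mean TPM (ENSMUSG00000031633.4, GRCm38 chromosome 8, 46206797 to 46211284, minus strand). Slc25a5 was at 364 and 432 TPM (ENSMUSG00000016319.3, chromosome X, 36795651 to 36798807, plus strand). Over all transcripts the heart form was 81.6% and 82.0% of the class and the dividing-cell form 18.4% and 18.0%, but in coding transcripts alone the heart form was 42.7% and 40.8%. Slc25a31 had 47 counts and 0.33 TPM in replicate 1 and 0 counts in replicate 2, where a count of 0 allows up to 0.0203 TPM by counting error alone.

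An order between 2 genes was called when the log2 ratio of their TPM, with 0.1 TPM added to each, pointed the same way in the 2 replicates and was larger than 2.15 in each of them. That limit is the 95th percentile of the absolute log2 differences between the replicates, over all genes whose mean level was no less than 1 TPM. The log2 ratio of Slc25a4 to Slc25a5 was 2.15 in replicate 1 and 2.19 in replicate 2, just past this limit. Slc25a4 exceeded Slc25a31 in both replicates, with a log2 ratio of 11.9 in replicate 1, where Slc25a31 had 47 counts. In replicate 2 Slc25a4 was at least 97161-fold higher over all transcripts, with 3 counts per library as the floor for Slc25a31. In coding transcripts alone the log2 ratios were 9.30 and 11.5.

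The transcripts behind these 2 levels differed in kind. The leading transcript of Slc25a4 was Slc25a4-202, which is annotated as a retained intron and not as protein-coding. It was assigned 1350 and 1679 TPM in replicates 1 and 2, or 83.3% and 85.3% of the gene. The coding transcript Slc25a4-201 was assigned 270 and 290 TPM, or 16.7% and 14.7%. By expected counts the coding transcript held 24.9% and 22.2% of the gene. The 1275 bases of Slc25a4-202 share 847 bases with Slc25a4-201, and 428 bases are in Slc25a4-202 alone. The 1925 bases of Slc25a4-201 hold 1078 that are not in Slc25a4-202. The junction where the annotated transcripts part is shown at chr8:46208368-46208427 on the minus strand, with the end of exon 3 of 4 in capitals and the start of the retained intron in lower case.
Slc25a4: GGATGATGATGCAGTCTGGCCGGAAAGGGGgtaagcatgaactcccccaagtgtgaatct
Slc25a5 showed no such split, since its coding transcript Slc25a5-201 held 99.3% and 97.2% of the gene. Counting only transcripts annotated as protein-coding turned the order, with Slc25a4 at 270 and 290 TPM and Slc25a5 at 362 and 420 TPM. The log2 ratio of Slc25a4 to Slc25a5 was then -0.48 on average, within the limit. Slc25a3, at 389 and 468 TPM in coding transcripts, also stood above Slc25a4, which ranked 3 in the family in both replicates. Since the 2 Slc25a4 transcripts share 847 bases, the split between them rests on the model that assigned the reads. Total RNA holds unspliced as well as spliced RNA, and the part of unspliced RNA in the level assigned to Slc25a4-202 was not tested.

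Slc25a3 encodes the carrier that brings phosphate into the matrix for ATP synthesis, and also copper. It reached 398 and 488 TPM (443 ± 63.9, SD, n = 2), close to Slc25a5 in both (ENSMUSG00000061904.8, chromosome 10, 91116574 to 91124059, minus strand). The gene has 2 versions of exon 3 that exclude each other, known as 3A in heart and skeletal muscle and 3B in other tissues. They are shown because the share of each is the measurement, with 3A at chr10:91122207-91122331 and 3B at chr10:91121922-91122043, both read on the minus strand from GENCODE M21 transcripts, and with the bases identical in their alignment in capitals.
Slc25a3 exon 3A: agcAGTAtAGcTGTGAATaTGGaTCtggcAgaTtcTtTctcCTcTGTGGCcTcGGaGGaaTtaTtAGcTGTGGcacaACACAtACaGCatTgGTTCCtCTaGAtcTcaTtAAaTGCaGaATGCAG
Slc25a3 exon 3B: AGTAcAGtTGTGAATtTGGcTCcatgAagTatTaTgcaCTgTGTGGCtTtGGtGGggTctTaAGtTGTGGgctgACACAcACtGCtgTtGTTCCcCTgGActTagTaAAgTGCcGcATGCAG
Exon 3A has 125 bases and exon 3B 122, and 77 of the 122 aligned bases, or 63.1%, were identical. The transcript with exon 3A, Slc25a3-206, was assigned 344 and 423 TPM. The 2 transcripts with exon 3B, Slc25a3-201 and Slc25a3-203, were assigned 45.0 and 45.7 TPM together. Exon 3A was thus in 88.4% and 90.2% of the TPM of transcripts annotated with either exon (89.3 ± 1.27%, SD, n = 2). The ratio of 3A to 3B was 7.65 and 9.25. By expected counts the share was 85.9% and 88.1%. Transcripts with no annotated exon at exactly either position held 2.21% and 4.08% of the gene. Whether they hold these bases within a longer exon was not tested. The muscle exon led in both replicates, while the level of the 3B transcripts differed little between them.

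Slc25a12 and Slc25a13 encode the aspartate/glutamate carriers aralar and citrin, which bind calcium at the cytosolic side and feed the malate-aspartate shuttle that moves reducing equivalents into the matrix. Slc25a12 was at 70.0 and 41.0 TPM (ENSMUSG00000027010.12, chromosome 2, 71271063 to 71367749, minus strand). Slc25a13 was at 20.2 and 19.0 TPM (ENSMUSG00000015112.11, chromosome 6, 6041218 to 6217173, minus strand). The log2 ratio of Slc25a12 to Slc25a13 was 1.79 and 1.11, within the limit, so no order was called. The coding transcript Slc25a12-206 held only 8.95% and 15.9% of the gene, at 6.26 and 6.51 TPM. The leading transcript Slc25a12-207, annotated as a target of nonsense-mediated decay, held 53.7% and 84.1%, at 37.6 and 34.5 TPM. A further non-coding transcript, Slc25a12-205, was at 23.04 TPM in replicate 1 but listed at 0 in replicate 2. Most of the drop in the gene's TPM between replicates lay in that transcript. In counts the gene differed less, with 14206 and 12415, and its effective length, the number of start positions available to a fragment, was 1923 bases in replicate 1 and 2732 in replicate 2.

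All 2392 bases of Slc25a12-207 lie within the 6351 bases of Slc25a12-206. It has 17 exons in place of 18 and lacks exon 4, of 116 bases, at chr2:71333605-71333720 on the minus strand. That exon is shown because it is absent from the annotated decay target and present in the coding form. Beside it is exon 4 of Slc25a13-201, at chr6:6152408-6152523 on the minus strand, with identical bases in capitals.
Slc25a12 exon 4: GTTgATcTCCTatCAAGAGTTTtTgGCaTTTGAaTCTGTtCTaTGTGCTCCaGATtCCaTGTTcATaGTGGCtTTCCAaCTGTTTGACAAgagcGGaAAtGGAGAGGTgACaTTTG
Slc25a13 exon 4: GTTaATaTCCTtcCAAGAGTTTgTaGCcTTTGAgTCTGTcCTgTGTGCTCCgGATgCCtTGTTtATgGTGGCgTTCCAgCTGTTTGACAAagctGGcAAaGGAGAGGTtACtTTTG
The exons were identical at 91 of 116 bases, or 78.4%. Since the 2 Slc25a12 transcripts differ within their shared span by this exon, and Slc25a12-206 is longer by 3959 bases in all, the split between them rests on the model that assigned the reads. In coding transcripts alone the log2 ratio of Slc25a12 to Slc25a13 was -1.67 and -1.53, the opposite direction, but within the limit, so again no order was called.

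The other carrier of the malate-aspartate shuttle is Slc25a11, which exchanges malate for oxoglutarate. It was at 138 and 141 TPM (139 ± 1.62, SD, n = 2), the fourth of the family in both (ENSMUSG00000014606.10, chromosome 11, 70644196 to 70647479, minus strand). The enzymes of the shuttle were also abundant, with Mdh1 at 348 and 332 TPM, Got2 at 168 and 163, Mdh2 at 107 and 98.5 and Got1 at 97.7 and 91.0. None of these 4 enzymes differed 2-fold between the replicates.

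Among the di- and tricarboxylate carriers, Slc25a11 stood above every other member. Slc25a10, which exchanges dicarboxylates such as malate and succinate for phosphate, was at 17.4 and 19.6 TPM. Slc25a1, which exports citrate for the synthesis of fatty acids, was at 9.96 and 12.4 TPM. The log2 ratio of Slc25a11 to Slc25a10 was 2.98 and 2.83 and that to Slc25a1 was 3.78 and 3.49, and both orders were called. Slc25a21, the oxodicarboxylate carrier of lysine and tryptophan breakdown, had 0 counts in both replicates, which allows up to 0.0225 and 0.0215 TPM by counting error. Against 3 counts per library Slc25a11 was at least 6138-fold higher in replicate 1 and 6550-fold in replicate 2.

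Slc25a1 was higher in replicate 2 in TPM but not in counts, which were 1438 and 1070. Its effective length was 1368 and 779 bases. The coding transcript Slc25a1-201 held 98.2% of the gene in replicate 1 and 41.0% in replicate 2. In replicate 2 the retained-intron transcripts Slc25a1-205 and Slc25a1-206 held 36.7% and 22.3%, and both were at 0 in replicate 1.

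The ATP-Mg/phosphate carriers load adenine nucleotides into the matrix in exchange for phosphate, and the longer members are switched on by calcium. Slc25a23 was the highest, at 11.5 and 12.6 TPM. Slc25a24 was at 6.51 and 3.17 TPM and Slc25a25 at 4.15 and 3.30 TPM. Neither order below Slc25a23 was called, with log2 ratios of 0.81 and 1.96 to Slc25a24 and of 1.44 and 1.90 to Slc25a25. Slc25a41, the short member without the calcium-binding part, had 0 counts in both replicates. Slc25a23 was at least 367-fold and 423-fold higher than a floor of 3 counts for it.

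The glutamate carriers were low. Slc25a22, which takes glutamate into the matrix with a proton, was at 2.43 and 4.59 TPM. By the deposited posterior mean, another estimate of TPM that averages over the uncertainty of the assignment, it was at 9.54 and 16.0 TPM. Of that posterior mean, Slc25a22-207 held 38.1% and 38.7% and Slc25a22-213 held 29.3% and 28.9%. These short transcripts, of 213 and 225 bases, had 0 counts in both replicates. Slc25a18, the counterpart of Slc25a22, had 13 counts in replicate 1 and 2 in replicate 2, or 0.11 and 0.02 TPM. The order of this pair was called, on few counts for Slc25a18.

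The cofactor carriers described were all detected. Slc25a51, which brings NAD into the matrix, was the highest, at 35.6 and 50.4 TPM (ENSMUSG00000045973.14, chromosome 4, 45395923 to 45408766, minus strand). Slc25a16, linked to coenzyme A, was at 3.99 and 9.36 TPM. The coenzyme A carrier Slc25a42 was at 5.35 and 7.69 TPM, and Slc25a17, a carrier of the peroxisomal membrane, at 4.68 and 7.09. Slc25a32, which carries folate and FAD, was the lowest at 1.69 and 3.44 TPM. Slc25a51 was called above each of these 4, with log2 ratios from 2.42 to Slc25a16 in replicate 2 up to 4.32 to Slc25a32 in replicate 1. These 5 carriers were all higher in replicate 2, by 0.48 to 1.19 on the centred log2 scale in TPM and by 0.23 to 1.02 in counts. This shared direction was picked out after the values were seen, and only Slc25a16 differed 2-fold in TPM.

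Glutathione enters mitochondria through Slc25a39 and Slc25a40. Slc25a39 was at 84.3 and 74.2 TPM (79.2 ± 7.15, SD, n = 2), the fifth carrier in both (ENSMUSG00000018677.5, chromosome 11, 102402985 to 102407946, minus strand). Slc25a40 was at 1.38 and 1.65 TPM. The log2 ratio of Slc25a39 to Slc25a40 was 5.83 and 5.41, the widest order among the classes in which both genes reached 1 TPM in both replicates.

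Of the pyrimidine nucleotide carriers, which supply the matrix for mitochondrial DNA and RNA synthesis, Slc25a36 was at 13.8 and 11.5 TPM. Slc25a33 was at 2.55 TPM in replicate 1 but 0.79 TPM in replicate 2. Their log2 ratio was 2.39 and 3.70, and the order was called, although in coding transcripts alone the ratio was 2.07 and 3.40, within the limit in replicate 1.

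Iron for heme and iron-sulfur clusters enters through the mitoferrins. The broadly expressed Slc25a28 was at 4.14 and 4.43 TPM and Slc25a37, known from red-cell precursors, at 2.71 and 4.63 TPM. The log2 ratio of Slc25a28 to Slc25a37 was 0.59 in replicate 1 and -0.06 in replicate 2, the only class pair whose sign differed between the replicates. In coding transcripts alone this ratio was 1.91 and 0.28, with the same sign in both, and again no order was called. Slc25a38, the glycine carrier of heme synthesis, was at 6.39 and 4.42 TPM. Alas2, the heme synthesis enzyme of red-cell precursors, was at 16.1 and 18.2 TPM in the same libraries. The part of red-cell RNA in the levels of Slc25a37 and Slc25a38 was not tested.

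Other amino acid carriers were low. Slc25a44, which carries branched-chain amino acids, was at 6.61 and 4.55 TPM, and its log2 ratio to Slc25a38 was 0.05 and 0.04. Slc25a26, which brings the methyl donor S-adenosylmethionine into the matrix, was at 3.21 and 3.96 TPM. The ornithine carrier of the urea cycle, Slc25a15, was at 2.30 and 2.19 TPM and the basic amino acid carrier Slc25a29 at 1.81 and 1.15 TPM. No order was called between those 2. The second ornithine carrier, Slc25a2, had 3 counts in replicate 1 and 0 in replicate 2, and the order of Slc25a15 above it was called.

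Carriers resembling the uncoupling proteins were led by Slc25a30, at 5.18 and 4.47 TPM. Slc25a27 was at 0.40 and 0.93 TPM and Slc25a14 at 0.02 and 0.65 TPM, the latter from 2 and 89 counts. Both orders below Slc25a30 were called, that over Slc25a27 by a narrow margin, with log2 ratios of 3.40 and 2.15. Slc25a46, an outer-membrane member linked to mitochondrial dynamics, was at 10.05 and 13.6 TPM. Of the 8 carriers without a substrate assigned here, Slc25a34 was the highest, at 3.33 and 14.9 TPM in the 2 replicates. Slc25a45 was at 1.00 and 1.26 TPM and Slc25a47 at 0.84 and 2.08 TPM. Slc25a53 was at 1.18 and 0.61 TPM, of which its coding transcripts held 0.05 and 0 TPM. Its posterior mean was 4.91 and 6.56 TPM. Of that posterior mean, 66.4% and 83.7% lay on Slc25a53-210, a transcript of 218 bases with 0 counts in both replicates. Slc25a35 was at 0.18 and 0.94 TPM. Slc25a43 and Slc25a48 had 0 counts in replicate 1 and 64 and 52 counts in replicate 2, while Slc25a54 had 0 counts in both.

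Over the 12 substrate classes with more than 1 gene there were 24 pairs of the highest member with another. The order was called for 17 of them, or 70.8%, against 55.4% of all 1035 pairs of carriers. The first gene of each pair was the class member of highest mean, which fixed the direction and widened the ratio, so the shares are not a like comparison. The 7 pairs not called were Slc25a12 over Slc25a13, Slc25a23 over Slc25a24 and over Slc25a25, Slc25a44 over Slc25a38 and over Slc25a26, Slc25a28 over Slc25a37, and Slc25a15 over Slc25a29. By posterior mean TPM, with a limit of 2.43, 11 orders were called. The 6 lost included Slc25a4 over Slc25a5, Slc25a51 over Slc25a16, Slc25a36 over Slc25a33, and Slc25a30 over Slc25a27 and over Slc25a14. Past a stricter limit of 4.85, the 99th percentile, were 4 orders, those over Slc25a31, Slc25a21, Slc25a40 and Slc25a41. In the list of all 46 carriers by mean level, none of the 45 steps from a gene to its neighbour met the rule in both replicates, and 14 had the same direction in both replicates. Among these were the steps from Slc25a4 to Slc25a3, with log2 ratios of 2.03 and 2.01, and from Slc25a5 to Slc25a11, with 1.40 and 1.62. The step from Slc25a3 to Slc25a5, of 0.13 and 0.18, was small beside the spread of single genes.

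**Figure D2:**
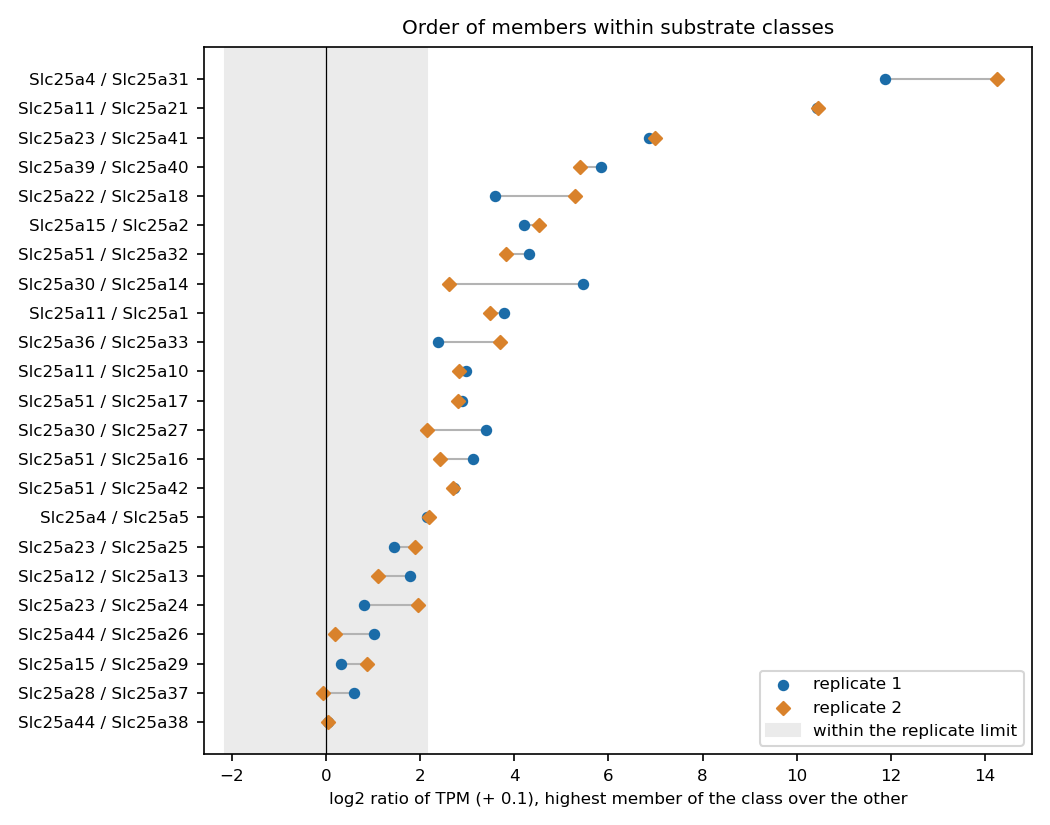
Log2 ratio of TPM plus 0.1 of the highest member of each class over another member, for 23 pairs, with a circle for replicate 1 and a diamond for replicate 2. The grey band marks ratios within the replicate limit of 2.15, within which 7 pairs stay in both replicates; Slc25a4 over Slc25a5 lies at its edge.

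Leading transcripts were described for the 17 carriers that have 2 or more annotated transcripts and reach a mean of 5 TPM. A single transcript held at least 80% of the TPM in both replicates for 6 of them, or 35.3%, against 30.6% of all such genes, a share near the background. These were Slc25a4, Slc25a3, Slc25a5, Slc25a11, Slc25a10 and Slc25a23. The same transcript led in both replicates for 14 of the 17, or 82.4%, against 71.8% of all such genes. The leader changed for Slc25a13, Slc25a42 and Slc25a44, each between coding transcripts. For Slc25a44 it was Slc25a44-204 with 70.8% in replicate 1 and Slc25a44-201 with 71.7% in replicate 2. Slc25a4 and Slc25a12 were the 2 carriers of the 17 whose leader was not annotated as coding. Slc25a37, at a lower mean of 3.67 TPM, also varied, with the coding transcript at 37.9% of the gene in replicate 1 and 78.2% in replicate 2.

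**Figure D3:**
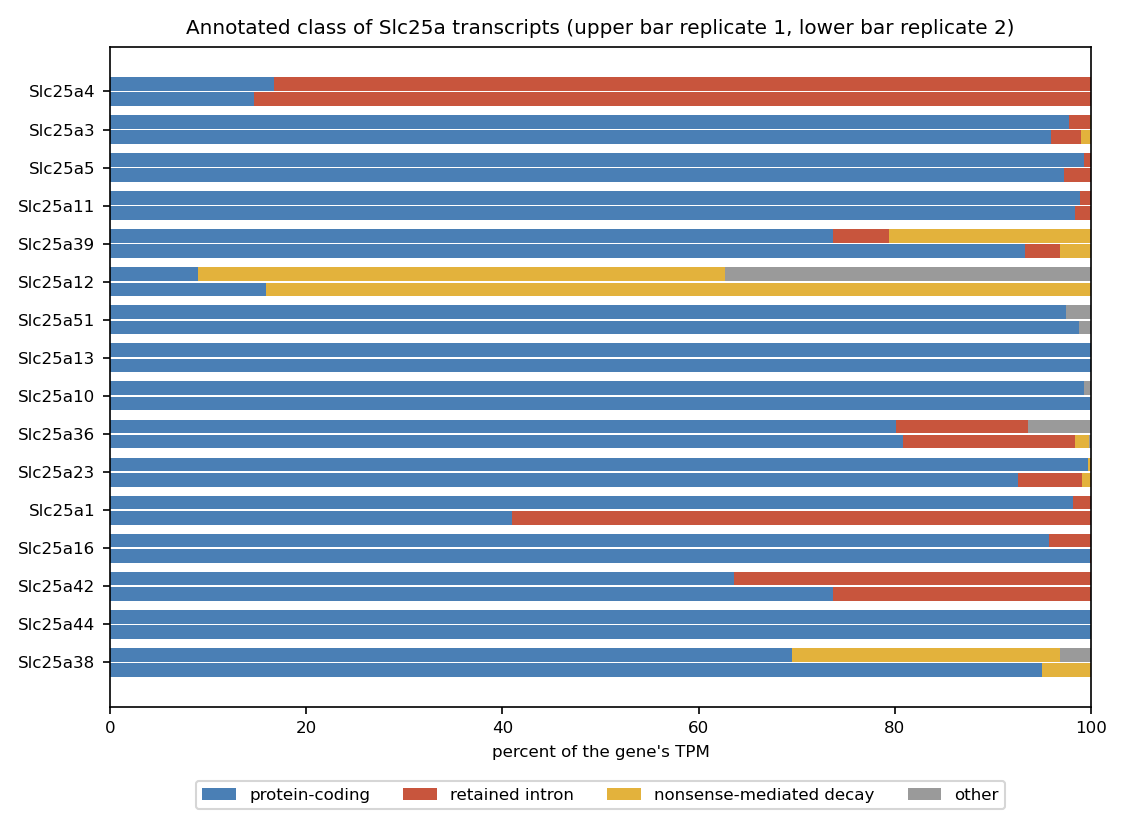
Percent of each gene's TPM in transcripts annotated as protein-coding, retained intron, nonsense-mediated decay or another class, for 16 carriers ordered by mean level, with replicate 1 as the upper and replicate 2 as the lower bar. Slc25a4 is mostly retained intron in both replicates, Slc25a12 mostly non-coding in both, and Slc25a1 mostly retained intron in replicate 2 alone.

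Replicate differences were log2 ratios of replicate 2 to replicate 1, centred on the median of all genes with a mean of no less than 1 TPM. Of the 34 carriers at that level, 5 differed 2-fold or more, or 14.7%, against 19.0% of all such genes. Higher in replicate 2 were 3 carriers (10.1% of all genes), namely Slc25a34 by 2.10, Slc25a47 by 1.19 and Slc25a16 by 1.19. Lower were 2 (8.9% of all genes), with Slc25a33 at -1.60 and Slc25a24 at -1.04. With a pseudocount of 1 TPM, Slc25a47 fell short of 2-fold at 0.72 and Slc25a24 at -0.87. That share was near, and somewhat under, the background. None of the 13 carriers at a mean of 10 TPM or more differed 2-fold, against 8.19% of all genes at that level, and all 5 were among the 21 between 1 and 10 TPM, where 25.1% of all genes differed. The widest difference among the 13 was that of Slc25a12, at -0.79. In all, 22 carriers were higher in replicate 2 and 12 lower, with a median difference of 0.22 against 0.00 for all genes. The median absolute difference was 0.38 for carriers and 0.40 for all genes.

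In counts not divided by length, 5 carriers also differed 2-fold, against 15.0% of all genes, and 4 of them were the same. Slc25a16 dropped to 0.70, with counts of 1178 and 2022 and effective lengths of 2795 and 1951 bases. Slc25a32, which missed the mark in TPM at 0.96, reached 1.02. For 3 carriers, Slc25a1, Slc25a25 and Slc25a45, the direction differed between TPM and counts. Slc25a34 was higher in replicate 2 on both scales, with 838 and 3920 counts and the same effective length to within 1 base. Of the 4 smooth muscle markers, 3 were higher by 2-fold or more in replicate 2, such as Tagln at 16.8 and 160 TPM, while the most abundant, Acta2, was at 280 and 395 TPM and differed by less. The lymphocyte and thymus marker Rag1 was lower in replicate 2, at 3.20 and 0.01 TPM. None of the 6 cardiomyocyte markers differed 2-fold. The part of a change in tissue make-up in the carrier differences was not tested.

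**Figure D4:**
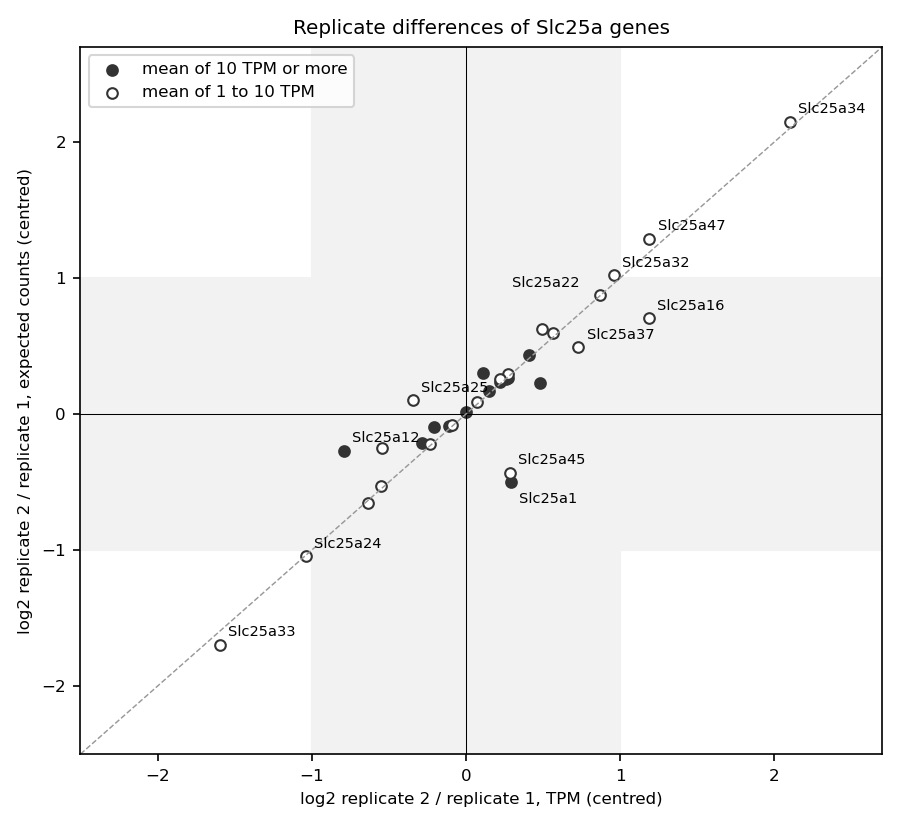
Log2 ratio of replicate 2 to replicate 1 for 33 carriers with a mean of no less than 1 TPM, in TPM on the horizontal axis and in expected counts on the vertical axis, both centred on all genes. The grey bands mark differences below 2-fold; filled circles, with a mean of 10 TPM or more, all lie within them, and Slc25a1 and Slc25a45 lie on opposite sides of 0 on the 2 scales.

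The longest coding sequences of the carriers ran from 795 bases for Slc25a2 to 2031 for Slc25a12, with a median of 957. Apart from Slc25a12 and Slc25a13, the longest were those of Slc25a25 with 1542 bases, Slc25a24 with 1425, Slc25a54 with 1419 and Slc25a23 with 1401. Within classes the coding identity to the highest member ranged from 41.0% for Slc25a51 and Slc25a32 to 77.4% for Slc25a4 and Slc25a5. No stretch of 101 bases, the length of a read, was shared between transcripts of any 2 carriers. Slc25a5 shared 7.85% of its stretches with 4 processed pseudogenes that summed to 0.97 and 0.56 TPM, far below the gene itself. Slc25a37 shared 6.10%, Slc25a36 4.45%, Slc25a40 2.23%, Slc25a51 0.46% and Slc25a3 0.17% of theirs with genes that all had 0 counts. Slc25a5-ps, the only non-coding gene of the tables whose symbol begins in the same way, also had 0 counts.

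Pairs of carriers closer than 50 kb on a chromosome lay at 4 places, and at 3 of them the levels of the neighbours were far apart. Slc25a43 lies 18448 bases before Slc25a5 on chromosome X on the same strand, and was at 0 and 0.70 TPM beside 364 and 432 TPM. Slc25a41 lies 2056 bases from Slc25a23 on chromosome 17 and Slc25a54 lies 6461 bases from Slc25a24 on chromosome 3, each on the same strand and each with 0 counts beside a detected neighbour. Slc25a29 and Slc25a47 start 162 bases apart on chromosome 12 on opposite strands. They were both near 1 TPM, with Slc25a29 lower and Slc25a47 higher in replicate 2.

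Other genes of mitochondrial transport, taken from lists of 40 genes, were detected in both replicates in 35 cases, against the 47.1% of all protein-coding genes. Of the relatives of the family with other names, Mtch1 and Mtch2, outer-membrane proteins that insert others, were at 74.3 and 74.8 TPM and at 53.8 and 47.8 TPM. The uncoupling protein genes were uneven, with Ucp2 at 14.3 and 37.2 TPM, Ucp3 at 0.03 and 4.16 and Ucp1, the brown fat form, at 0 counts. Of the 18 other inner-membrane transporters 15 were detected, led by the pyruvate carrier subunits Mpc1, at 229 and 260 TPM, and Mpc2, at 99.5 and 79.1. Smdt1, a regulator of the calcium uniporter, was at 88.9 and 116 TPM, far above the pore gene Mcu at 3.11 and 3.44. The outer-membrane channels Vdac2, Vdac1 and Vdac3, through which the metabolites reach the carriers, were at 180 and 164, 138 and 126, and 50.6 and 71.5 TPM. All 10 genes of the import machinery that inserts carriers were detected, with Tomm22 at 71.1 and 67.7 TPM the highest. The inner-membrane insertase gene Timm22 was at 11.2 and 5.32 TPM, one of 2 import genes that differed 2-fold in TPM. Its direction turned between the scales, with a centred log2 difference of -1.08 in TPM. In counts, which were 862 and 1489, the difference was 0.71, higher in replicate 2. Over all transcripts Slc25a4 stood above every gene of these lists in both replicates, but its coding transcript, at 270 and 290 TPM, lay below Mdh1 at 348 and 332 TPM for all transcripts of that gene.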

How the data were processed

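Per the labels, ribosomal-depleted total RNA of newborn mouse heart was sequenced with spike-in RNAs added. Column names are those of RSEM, and the deposited notes give mm10 as the assembly with GENCODE M4 as its annotation. Which aligner and versions were used is not given in the sources used here. Expected counts, as deposited, are estimates of fragments per gene or transcript, not normalized between libraries. TPM, as deposited, relate those counts to effective length and then to the whole library. The FPKM that the authors deposited, scaled by length and library total, and posterior mean TPM served as alternatives. The deposited percent of a gene's TPM per transcript gave transcript shares.

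GENCODE M21 on GRCm38 supplied names, coordinates and sequences through unversioned identifiers, and 3 of 208 carrier transcripts were not in M21. A planned description of protein sequences was not made, and coding sequences were aligned instead with Biopython 1.88. The carriers, substrate classes and lists were chosen with earlier results of these data known, and any carrier could be named. Of the family, 1 gene outside the 46 is not reported here, and 1 of the 46 is counted but neither named nor drawn. The read-length stretches were searched on the same strand. With 1 group of 2 replicates no test was run. Counting floors of 3 counts cover counting error only. Alternatives changed the detection level, pseudocount, filter, scaling, unit or limit, or used a single replicate. Rounded expected counts gave TMM factors in edgeR 4.0.16 under R 4.3.3, and other steps used Python 3.11.15, numpy 2.4.6, pandas 2.3.3 and matplotlib 3.10.9.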

Additional observations from a re-analysis of the deposited data

How the results depend on the processing

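No paired analysis was possible because the replicates form 1 group. Of the 32 carriers detected at 1 TPM, 15 passed at 5 TPM. The 17 orders called became 4 when the limit was the 99th percentile, 4.85, and 11 with posterior mean TPM, whose limit was 2.43. The order of Slc25a4 over Slc25a5 was also lost with posterior mean TPM or a pseudocount of 0.01, and it turned to -0.48 with protein-coding transcripts only, an alternative added after seeing the data. Carriers lower in replicate 2 by 2-fold were 1 with a pseudocount of 1 and 0 with a filter at a mean of 5 TPM, and those higher were 8 with no filter. Carriers with a major transcript were 13 at a share of 50% and 3 at 90%. The share of exon 3A was 87.0% by expected counts, also added later. For each of these the cause was not tested, except that filters change the genes counted. The other 37 values of the main results under alternatives, which included each replicate alone where that gave a value, moved by no more than 1.5 times or 1 SD. For the share of exon 3A in each replicate alone this was fixed in advance. Either of 2 values always lies within 1 SD of their mean, so it says nothing about stability. Low counts limit the orders that rest on Slc25a14, Slc25a18 and Slc25a2.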
